A study of Homo sapiens with 9 samples.

Results

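The genes described here make, bind, sense and remove retinoic acid, the active form of vitamin A. They were chosen by name, with earlier results of these data known: CRABP1, CRABP2, RARB, CYP26A1, CYP26B1, ALDH1A1, ALDH1A2, ALDH1A3 and DHRS3. Every probe set that the platform annotation assigns to a single one of these genes was taken, which gave 15 of 54675 probe sets for 8 of the 9 genes. CRABP1 had no such probe set in the annotation used and was not analysed here. Where a gene had several, the one that was highest on average across the 9 arrays served as its main probe set, and 19775 genes entered the tests in this way.

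Levels were measured on Affymetrix oligonucleotide arrays, which read transcripts near their 3' end, in the human embryonic stem cell (hESC) lines Shef3, H14 and Shef1. The FGF3+10 group was kept for 14 days on laminin in DFNB (serum-free, supplemented with N2 and B27), to which FGF3 (50 ng/ml) and FGF10 (50 ng/ml) were added. The DFNB group was kept for the same 14 days on laminin in that medium without FGFs. The hESC group was taken undifferentiated at day 0 from cells grown on inactivated mouse fibroblasts (MEF feeders) with a serum replacement and basic FGF at 4 ng/ml. Each group held 3 arrays, 1 per line, so the SD of a group also holds what separates the lines. No label speaks of separate cultures of a line, and a p-value here measures the spread between these arrays. No group received retinoic acid according to the labels. The usual form of B27 contains a retinyl ester, a precursor of retinoic acid, and a form without vitamin A also exists; the labels do not say which was used.

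Retinol is oxidised to retinaldehyde by retinol dehydrogenases such as RDH10, and DHRS3 runs this step backwards. The ALDH1A enzymes then oxidise retinaldehyde to retinoic acid, CRABP proteins carry it in the cytoplasm, and the CYP26 enzymes destroy it. In the nucleus it binds receptors such as RARB, which sit with RXR partners on paired short DNA motifs called retinoic acid response elements. RARB and CYP26A1 are textbook direct targets of the signal. Retinoic acid patterns the hindbrain, the eye and the inner ear of vertebrate embryos, and in mouse Aldh1a1 marks the dorsal and Aldh1a3 the ventral retina.

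RARB and CYP26A1 were also the only 2 of the 8 genes with a DR5 element, the classical form of the retinoic acid response element, in a promoter window. Their windows are shown because the genes share this element and had mean differences of opposite sign at day 14. The search looked for 2 copies in tandem of a half-site separated by 5 bases. The half-sites accepted were AGGTCA and its variant AGTTCA, and likewise GGGTCA and its variant GGTTCA. The search covered both strands of 300 bases from 250 before to 50 after each annotated transcription start. Capitals mark the element. The sequences are from RefSeq on GRCh38.p14, read 5' to 3' on the strand of the gene, which is the plus strand for both.
RARB, chr3:25428013-25428312: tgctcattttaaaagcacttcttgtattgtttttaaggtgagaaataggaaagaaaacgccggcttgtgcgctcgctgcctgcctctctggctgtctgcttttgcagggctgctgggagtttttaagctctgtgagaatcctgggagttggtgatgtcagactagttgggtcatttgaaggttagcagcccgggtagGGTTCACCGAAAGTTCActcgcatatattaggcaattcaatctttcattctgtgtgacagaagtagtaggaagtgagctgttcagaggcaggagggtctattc
CYP26A1, chr10:93073643-93073942: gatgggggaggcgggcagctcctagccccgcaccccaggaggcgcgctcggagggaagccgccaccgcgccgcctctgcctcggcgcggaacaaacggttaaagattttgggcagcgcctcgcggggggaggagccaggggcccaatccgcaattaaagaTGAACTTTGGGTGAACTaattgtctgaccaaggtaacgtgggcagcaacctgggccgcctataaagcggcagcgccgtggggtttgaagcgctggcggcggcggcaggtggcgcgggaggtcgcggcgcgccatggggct
The element of RARB lies at positions -53 to -37 on the strand of the gene, counted from the start as 0, and reads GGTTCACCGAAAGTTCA. That of CYP26A1 lies at positions -90 to -74 on the opposite strand, where it reads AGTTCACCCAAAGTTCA. The window shown is 1 of 4 annotated starts of RARB and 1 of 2 of CYP26A1, and the other starts had no match. Among all 35116 promoter windows 31 held a DR5 element (0.0883%), against 2 of the 15 windows of these 8 genes. The genes were chosen by name, with RARB and CYP26A1 already known as direct targets, so these shares are not a test. With spacers of 2 and 1 bases the same half-sites matched in 14 (0.0399%) and 46 (0.131%) of all windows, and in 0 of the 15. A match is a stretch of letters and was not tested as a binding site.

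The 9 arrays share a median of 3.20, and the values run from -14.4 to 13.3 without a floor. Values below 4, a level set here, were taken as low and read with caution. The noise at each level was not measured. The scale is taken as log2, which no source states. Mean levels of 9 measured pluripotency markers were 2.20 to 8.37 on the FGF3+10 arrays, 2.45 to 7.82 on the DFNB arrays and 8.61 to 10.51 on the hESC arrays. The lowest day 14 means were those of Shef3, where NANOG read -7.62 with FGF3+10 and -10.17 in DFNB. The mean of FGF3+10 H14 came close to that of hESC Shef1, where ZFP42 read -0.48, against 7.66 on FGF3+10 H14. Of the other markers, SALL4 was also higher on FGF3+10 H14 than on hESC Shef1, and the rest were lower. For 6 measured otic and preplacodal markers the means were 5.16 to 5.92 in FGF3+10, 5.33 to 5.50 in DFNB and 2.80 to 3.74 in hESC. The signal of GAPDH at its 3' end exceeded that at its 5' end by 0.14 to 0.53 on the 9 arrays. Poly-A spike-ins, added to the RNA before labelling, averaged 7.24 ± 0.04 (SD, n = 3 arrays) on Shef1, against 5.06 ± 0.09 on H14 and 5.04 ± 0.36 on Shef3.

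None of the 8 genes passed an adjusted p of 0.05 in limma in any of the comparisons, where adjustment was over all 19775 genes. Between DFNB and hESC 0 of 8 were called, against 40 genes or 0.202% of the whole table. Between FGF3+10 and hESC 0 of 8 were called, against 35 genes or 0.177%. Between FGF3+10 and DFNB no gene of the table was called (0%), and 300 had an unadjusted p below 0.05 (1.52%), none of them among the 8. Before adjustment, 4 of the 8 had a p below 0.05 between DFNB and hESC, 3 higher and 1 lower, where 15.8% of all genes did (6.11% higher and 9.69% lower). Between FGF3+10 and hESC 3 did, all higher, where 12% of all genes did (4.52% higher and 7.47% lower). Since the 8 genes were chosen with earlier results of these data known, these shares are not a test. With the cell line as a replicate block the counts over all genes were 189 (0.956%) for DFNB, 115 (0.582%) for FGF3+10 and 0 between the media, and 0 of the 8 genes in each. In both media the largest differences from hESC belonged to ALDH1A2, ALDH1A1 and RARB.

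**Figure D1:**
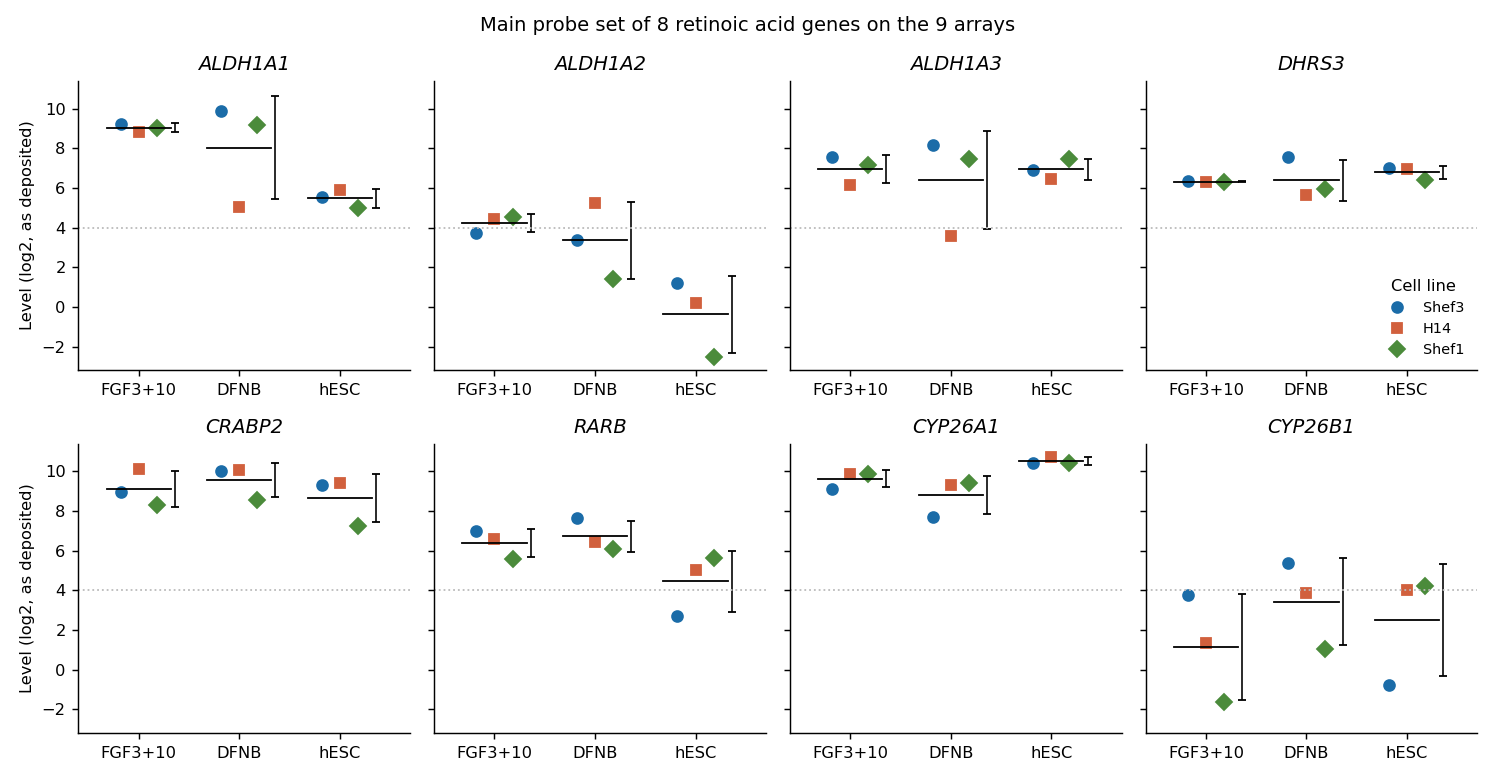
Level of the main probe set of each gene (log2, as deposited) by group, with 1 point per array, shaped and coloured by cell line; horizontal bars are means and vertical bars the SD of 3 arrays, and the dotted line is level 4. ALDH1A1 sits between 8.80 and 9.86 on 5 of the 6 day 14 arrays and at 5.05 on the DFNB array of H14.

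ALDH1A1 is the retinaldehyde dehydrogenase that also serves as a marker of several progenitor cells. With FGF3+10 the levels in Shef3, H14 and Shef1 were 9.25, 8.80 and 9.04. In DFNB the same lines read 9.86, 5.05 and 9.17. In hESC they read 5.53, 5.91 and 4.97. The FGF3+10 arrays thus lay close together and above all hESC arrays, whereas in DFNB 1 of the 3 lines stayed at the hESC level. The difference from hESC was 3.56 ± 1.08 in FGF3+10 (SE, n = 3 and 3 arrays; limma, adjusted p = 0.234) and 2.56 ± 1.08 in DFNB (adjusted p = 0.303). Whether it was called turned on that 1 array. Without DFNB H14 the difference was 4.05 in DFNB (adjusted p = 0.0309) and 3.56 in FGF3+10 (adjusted p = 0.0267), where that array enters through the spread that all arrays share. A fit of the 6 FGF3+10 and hESC arrays alone also called it (adjusted p = 0.0454). Over all alternatives the adjusted p of ALDH1A1 ran from 0.0267 to 0.665 in FGF3+10 and from 0.0309 to 0.736 in DFNB. In bulk RNA, more cells that express a gene and more transcript per cell cannot be told apart.

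The 10 lists of cell type markers were chosen with earlier results of these data known, and no test compared them. The mean of the eye field and retinal progenitor list was, like ALDH1A1, lowest at day 14 on DFNB H14. The mean level of its 8 measured genes was 4.95 to 7.58 in FGF3+10, 2.46 to 6.44 in DFNB and 1.53 to 2.74 in hESC. The DFNB array of H14 was the one at 2.46, within the hESC range, and the other day 14 arrays were at 4.95 or more. Only 4 of the 8 genes had a mean of 4 or more over the 9 arrays. On DFNB H14, SIX3, SIX6, LHX2 and PAX6 read 3.37, 1.20, 3.96 and 6.44, each above all hESC arrays. There OTX2, RAX, TBX5 and VAX2 read 7.93, -2.31, -0.99 and 0.05, each below all hESC arrays. RAX, TBX5 and VAX2, far below 4 there, lower the mean of that array. Of the 8 genes 7 were higher in FGF3+10 and 5 in DFNB than in hESC, 1 was called in FGF3+10 and 0 in DFNB, and VAX2 lay below 4 on all 9 arrays. The mean of 9 mesenchyme and fibroblast markers was 6.71 to 10.21 in FGF3+10, 8.55 to 10.91 in DFNB and 7.35 to 8.59 in hESC, with DFNB H14 at 9.94. Among the other lists, 8 retinal pigment epithelium markers averaged 2.65 on DFNB H14. They averaged 3.40 to 4.53 on the other day 14 arrays and 3.46 to 3.86 in hESC. The 6 otic and preplacodal markers averaged 5.49 on DFNB H14, within the DFNB range of 5.33 to 5.50. The part of any of these cell types in the ALDH1A1 level was not tested. By Pearson correlation over the 9 arrays, among 11501 genes with a mean of 4 or more, the pattern most like that of ALDH1A1 was that of CRYGC, a lens crystallin (r = 0.955), followed by KLHL14 (0.942) and C1orf105 (0.941). These r describe 9 arrays that share groups and lines.

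**Figure D2:**
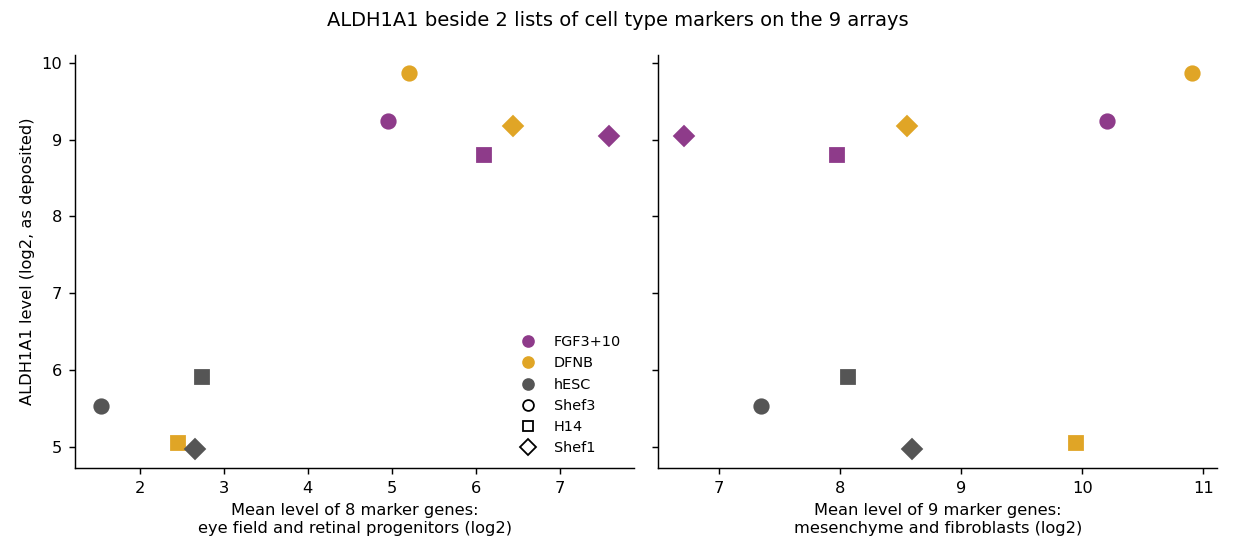
ALDH1A1 level (vertical axis, log2) against the mean log2 level of 8 eye field and retinal markers (left) and 9 mesenchyme and fibroblast markers (right); each point is 1 array, coloured by group and shaped by line. On the left the DFNB array of H14, at 2.46 and 5.05, falls among the hESC arrays, and on the right, at 9.94, it does not. RAX, TBX5 and VAX2, far below 4 on that array, lower its mean on the left.

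ALDH1A2 is the main enzyme of retinoic acid synthesis in the mesoderm of vertebrate embryos. Its main probe set read 3.73 in Shef3, 4.45 in H14 and 4.52 in Shef1 with FGF3+10, and 3.40, 5.24 and 1.41 in the same lines in DFNB. In hESC it read 1.22, 0.22 and -2.53. Both day 14 groups lay above all hESC arrays, and the value of each line was higher at day 14 in both media. The difference from hESC was 4.60 ± 1.12 in FGF3+10 (adjusted p = 0.152) and 3.71 ± 1.12 in DFNB (adjusted p = 0.181), the largest among the 8 genes in both comparisons. These sizes rest on low values, since 6 of the 9 arrays were below 4. With a floor of 4 under all values the differences were 0.32 in FGF3+10 and 0.41 in DFNB (adjusted p = 0.685 and 0.517). The other probe set of the gene was below 4 on all arrays and gave -0.53 and -0.14. With array weights the DFNB difference, at 3.89, was called (adjusted p = 0.0372), and over all alternatives its adjusted p ran from 0.0372 to 0.757.

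ALDH1A3, the third enzyme of this step, read 7.55 in Shef3, 6.17 in H14 and 7.16 in Shef1 with FGF3+10. It read 8.19, 3.59 and 7.47 in DFNB, and 6.90, 6.44 and 7.47 in hESC. The DFNB array of H14 was again the low one, and the other 8 arrays lay between 6.17 and 8.19. Set against hESC, the gene differed by 0.02 ± 1.06 in FGF3+10 and -0.52 ± 1.06 in DFNB (adjusted p = 0.997 and 0.843), with 95% intervals of -2.40 to 2.44 and -2.94 to 1.90. Without DFNB H14 the DFNB difference was 0.89. Its second probe set lay below 4 on all arrays. The patterns most like it were those of CALB1, a calcium-binding protein (r = 0.960), HLA-DMB (0.932) and C1orf54 (0.929).

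DHRS3, which returns retinaldehyde to retinol and is induced by retinoic acid, read 6.34, 6.30 and 6.30 in Shef3, H14 and Shef1 with FGF3+10. It read 7.55, 5.65 and 5.95 in DFNB and 6.98, 6.97 and 6.41 in hESC. All FGF3+10 arrays were thus below all hESC arrays, by a small margin, while DFNB spread to both sides. The difference from hESC was -0.47 ± 0.49 in FGF3+10 and -0.40 ± 0.49 in DFNB (adjusted p = 0.737 and 0.715). Its pattern was most like those of HOXB7 (r = 0.930), TMEM150C (0.909) and FMOD (0.869).

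CRABP2 delivers retinoic acid to its nuclear receptors. It read 8.94, 10.10 and 8.31 in Shef3, H14 and Shef1 with FGF3+10, and 9.99, 10.08 and 8.55 in DFNB. In hESC it read 9.32, 9.41 and 7.24. The groups overlapped, and within each group Shef1 was the lowest line. Each line was higher in DFNB than in hESC, by 0.67, 0.66 and 1.32. On average CRABP2 differed from hESC by 0.46 ± 0.73 in FGF3+10 and 0.88 ± 0.73 in DFNB (adjusted p = 0.843 and 0.582), with 95% intervals of -1.20 to 2.13 and -0.78 to 2.55. That SE also holds the differences between lines. With the replicate block the SE was 0.345 (limma, adjusted p = 0.525 in FGF3+10 and 0.212 in DFNB). CRABP2 had the lowest p of the 8 genes in the test of cell lines, with a mean over groups of 8.04 ± 0.70 in Shef1, 9.86 ± 0.39 in H14 and 9.41 ± 0.53 in Shef3 (SD, n = 3 arrays; limma moderated F, adjusted p = 0.0923). Of all genes 91 passed that test (0.46%), and 0 of the 8. Among the 11502 genes with a mean of 4 or more CRABP2 did pass (adjusted p = 0.0410). The poly-A spike-ins, which stood higher on Shef1, also separate this line, and their part was not tested. The genes most like CRABP2 were MFAP2, a microfibril protein (r = 0.976), CLSTN1 (0.975) and AKT2 (0.973).

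RARB, the receptor whose own promoter carries the element shown above, read 6.98, 6.59 and 5.59 in Shef3, H14 and Shef1 with FGF3+10. It read 7.62, 6.42 and 6.10 in DFNB, and 2.68, 5.02 and 5.63 in hESC. The DFNB arrays lay above all hESC arrays, and FGF3+10 Shef1 lay just below hESC Shef1. The difference from hESC was 1.94 ± 0.78 in FGF3+10 (95% interval 0.16 to 3.73; adjusted p = 0.371) and 2.27 ± 0.78 in DFNB (0.48 to 4.06; adjusted p = 0.235). Much of it came from 1 line. In DFNB the line Shef3 differed by 4.94, H14 by 1.41 and Shef1 by 0.47. Without Shef3 the mean difference was 0.77 in FGF3+10 and 0.94 in DFNB. The array hESC Shef3, at 2.68, was the only 1 below 4. Without that array the difference was 1.06 in FGF3+10 and 1.39 in DFNB. With a floor of 4 it was 1.50 and 1.83, and with the mean of probe sets 0.78 and 1.19. In a test added after the data were seen, the day 14 change of both media was larger in Shef3 than in Shef1 by 4.40 (unadjusted p = 0.000742 in limma; adjusted p = 0.122), where 23.4% of all genes had an unadjusted p below 0.05 and none passed after adjustment. That test takes its spread from the 2 day 14 arrays of each line, and the hESC level of each line is a single array.

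Of the other 4 probe sets of RARB, the one with the highest mean was also higher at day 14. It read 5.26, 4.51 and 2.75 with FGF3+10 and 5.72, 4.67 and 3.38 in DFNB, against 1.11, 1.50 and 2.62 in hESC, in the order Shef3, H14, Shef1. It was higher than in hESC of the same line on all 6 day 14 arrays. Its difference was 2.43 ± 0.80 in FGF3+10 and 2.85 ± 0.80 in DFNB, and in a fit over all probe sets the adjusted p was 0.344 and 0.214. The other 3 lay below 4 on all 9 arrays and gave differences of -0.58 to 0.15 in FGF3+10 and 0.03 to 0.40 in DFNB. Which of the annotated starts each probe set reads was not analysed here. The genes most like RARB were OXR1 (r = 0.986), GRK5, a receptor kinase (0.977), and SLC24A3, an ion exchanger (0.969).

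**Figure D3:**
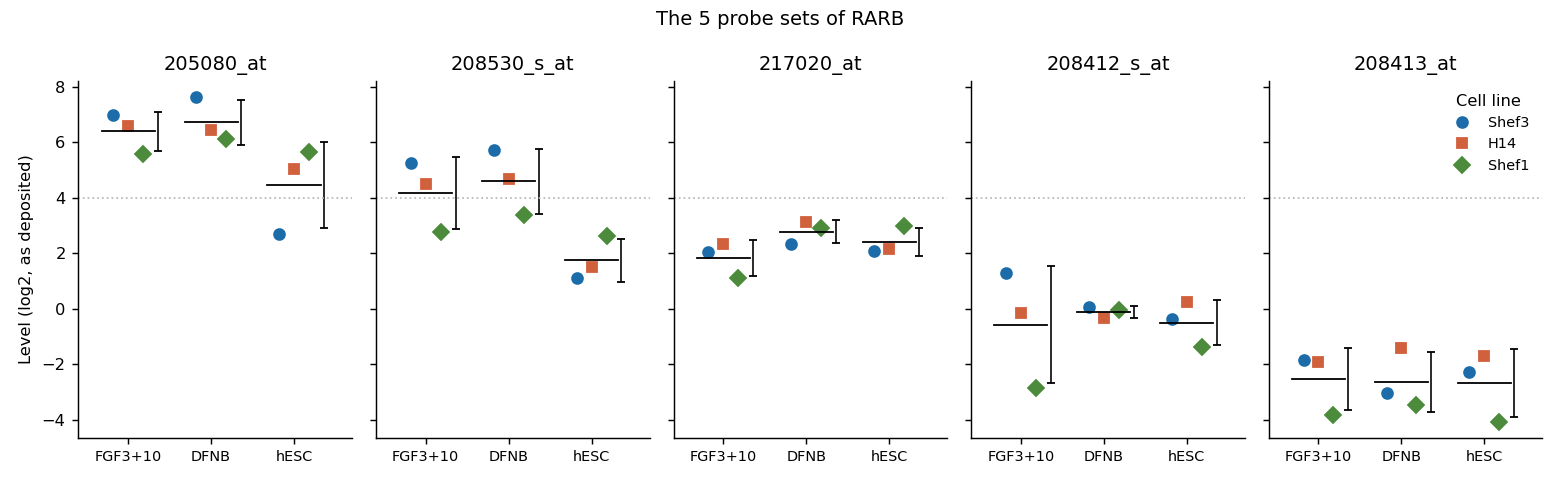
Level (log2, as deposited) of each of the 5 probe sets of RARB by group, ordered by mean level, with 1 point per array, the mean and the SD of 3 arrays; the dotted line is level 4. The first 2 panels show higher day 14 means, with the widest gap in Shef3, and the last 3 lie below 4 throughout.

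CYP26A1 degrades retinoic acid. Of the 8 genes it was the 1 that was lower on all 6 day 14 arrays than in hESC of the same line. The share of all genes lower on all 6 was not counted. For each medium alone, 24.6% of all genes were lower in all 3 lines with FGF3+10 and 25.9% in DFNB. CYP26A1 read 9.13, 9.87 and 9.88 in Shef3, H14 and Shef1 with FGF3+10, and 7.69, 9.29 and 9.40 in DFNB. In hESC it read 10.40, 10.72 and 10.39. Neither day 14 group overlapped with hESC, and each line was lower in DFNB than with FGF3+10. The difference from hESC was -1.71 ± 0.48 in DFNB (95% interval -2.81 to -0.61; adjusted p = 0.166, and 0.0812 with the replicate block). In FGF3+10 it was -0.88 ± 0.48 (-1.98 to 0.22; adjusted p = 0.509). The difference between FGF3+10 and DFNB was 0.83 ± 0.48, higher in FGF3+10 in 3 of 3 lines (adjusted p = 1.00), where 9.4% of all genes were. With array weights the DFNB difference, at -2.15, was called (adjusted p = 0.0392), and over all alternatives its adjusted p ran from 0.0392 to 0.698. The pluripotency markers averaged 2.20, 8.37 and 8.05 in Shef3, H14 and Shef1 with FGF3+10 and 2.45, 6.38 and 7.82 in DFNB, against 10.51, 9.96 and 8.61 in hESC. Single genes far below 4, such as NANOG on the day 14 arrays of Shef3 and ZFP42 on Shef1, lower these means. The part of these markers in the CYP26A1 level was not tested. The genes most like CYP26A1 were PTCHD1 (r = 0.983), RAP1GAP2 (0.977) and EPHX3 (0.961).

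The second degrading enzyme, CYP26B1, differed between lines in sign. It read 3.74, 1.33 and -1.62 in Shef3, H14 and Shef1 with FGF3+10, and 5.36, 3.84 and 1.04 in DFNB, against -0.75, 4.00 and 4.23 in hESC. Only DFNB Shef3, hESC H14 and hESC Shef1 reached 4. Its differences from hESC were -1.35 ± 1.78 in FGF3+10 and 0.92 ± 1.78 in DFNB (adjusted p = 0.803 and 0.833), or -0.079 and 0.37 with a floor of 4. In every line it was lower with FGF3+10 than in DFNB, by 1.62, 2.52 and 2.66 for Shef3, H14 and Shef1, and this difference of -2.26 ± 1.78 did not pass (adjusted p = 1.00; 12.5% of all genes were lower in 3 of 3 lines). The second probe set was below 4 on all arrays.

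**Figure D4:**
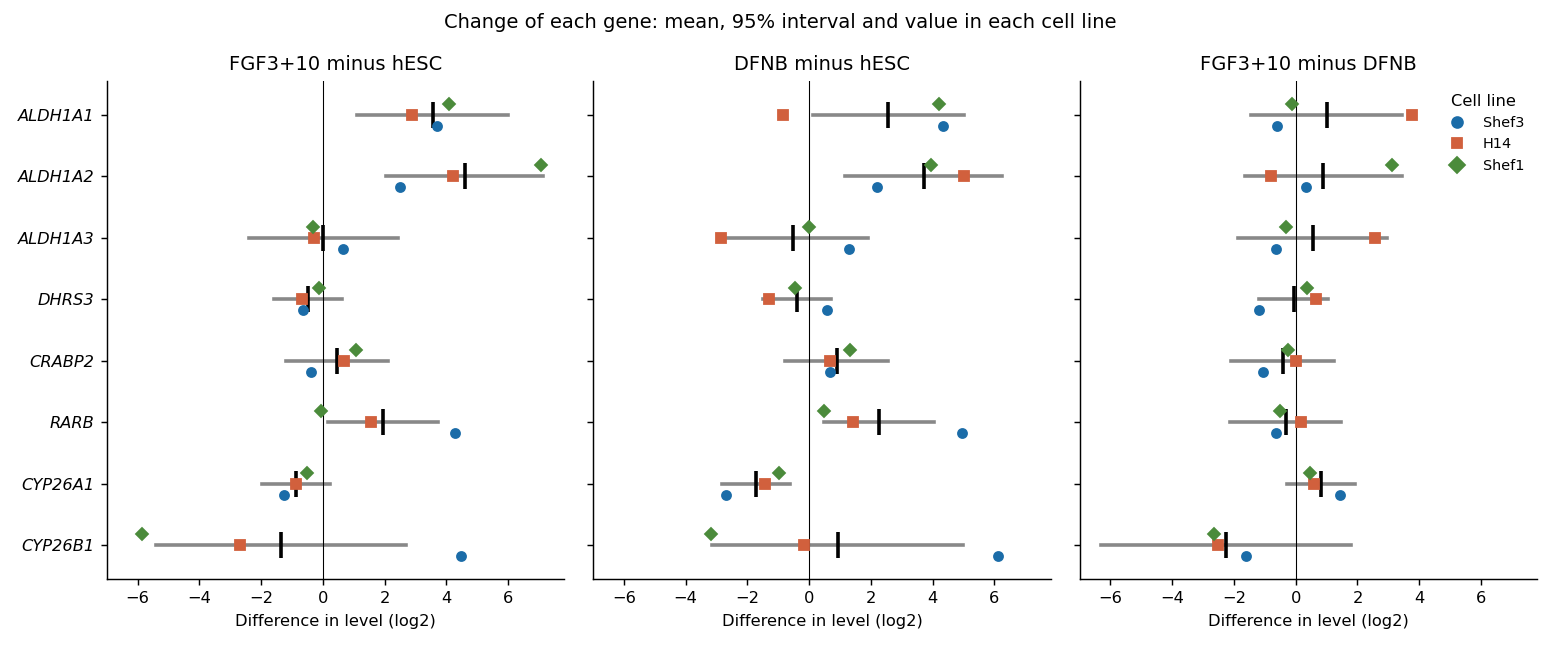
Difference in level (log2) of each gene for FGF3+10 minus hESC, DFNB minus hESC and FGF3+10 minus DFNB; black ticks are means, grey lines 95% intervals from limma, and points the 3 cell lines. CYP26B1 shows the widest spread between lines against hESC, and CYP26A1 lies left of 0 in every line in both of those panels.

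In counts over the 8 genes, 5 were higher and 3 lower on average in each day 14 group than in hESC. The share of all genes that were higher or lower on average was not counted. The genes were chosen with earlier results of these data known, so the shares below are not a test. In DFNB the groups did not overlap for 3 genes, ALDH1A2 and RARB above and CYP26A1 below, where 7.8% of all genes lay wholly above and 14.3% wholly below. In FGF3+10 they did not overlap for 4 genes, ALDH1A1 and ALDH1A2 above and CYP26A1 and DHRS3 below, where the shares of all genes were 5.68% and 11.3%. In DFNB 3 genes, ALDH1A2, CRABP2 and RARB, were higher in all 3 lines, where 15.9% of all genes were, and in FGF3+10 ALDH1A1 and ALDH1A2 were, where 13.3% of all genes were. The median difference of the 8 was 0.24 in FGF3+10 and 0.90 in DFNB, beside -0.19 and -0.19 over all genes. The comparisons with hESC share the hESC arrays. Between FGF3+10 and DFNB the groups overlapped for all 8 genes, where 1.46% of all genes lay wholly above and 1.72% wholly below, and the median was 0.24, beside 0.00 over all genes. The 95% intervals between the media reached 3.46 for ALDH1A1, 3.43 for ALDH1A2 and -6.32 for CYP26B1, so that sizeable differences were not detectable with 3 arrays per group.

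Other genes of the pathway were read from the same fit in 4 lists. The share of all genes that were higher or lower on average was not counted. The median difference over all genes was -0.19 in both media. Of 14 measured genes that carry, transport or store retinoids, 0 passed, 12 were lower in FGF3+10 and 11 in DFNB than in hESC, and the median differences were -1.10 and -1.28. At an unadjusted p below 0.05 in limma, 6 were lower in FGF3+10 and 4 in DFNB, where 7.47% and 9.69% of all genes were, and none was higher. Only 4 of the 14 had a mean of 4 or more, and RBP3, RBP5, RPE65, RLBP1 and BCO1 lay below 4 on all arrays. With the filter at 4 the DFNB median was -0.71. TTR, a blood carrier of retinol and thyroid hormone, read 9.73, 6.18 and 2.18 with FGF3+10 and 8.29, 8.30 and 3.67 in DFNB, against 9.83, 9.91 and 7.87 in hESC, in Shef3, H14 and Shef1. Its differences were -3.17 ± 1.90 in FGF3+10 and -2.45 ± 1.90 in DFNB. FABP5, which can pass retinoic acid to PPARD, was at 11.07 ± 0.06 in FGF3+10, 10.84 ± 0.43 in DFNB and 11.93 ± 0.33 in hESC (SD, n = 3 arrays; adjusted p = 0.330 for FGF3+10 and 0.174 for DFNB against hESC). With the replicate block LRAT, which stores retinol as an ester, and RBP4, its blood carrier, were lower in FGF3+10 (adjusted p = 0.0277 and 0.0482). They had differences of -4.44 ± 0.72 and -4.12 ± 1.20 without it, and were chosen after their values were seen. These sizes rest on low values, since LRAT was below 4 on 7 of the 9 arrays and RBP4 on 5. TTR and RBP4 are also products of endoderm, and the mean of 6 endoderm markers was 3.34 to 4.11 in FGF3+10, 2.60 to 4.98 in DFNB and 6.92 to 8.43 in hESC, with all 6 lower in both; their part was not tested.

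Of 19 other retinoid enzymes 0 passed, with 10 higher in FGF3+10 and 5 in DFNB and medians of 0.01 and -0.27. At an unadjusted p below 0.05 in limma, 1 was higher and 2 lower in FGF3+10, and 2 were higher and 2 lower in DFNB. Of all genes 4.52% were higher and 7.47% lower in FGF3+10, and 6.11% and 9.69% in DFNB. In this list 10 genes, among them ADH1A, ADH1B, ADH1C, ADH4 and ADH7, lay below 4 on all arrays. RDH10, the retinol dehydrogenase that supplies retinaldehyde in the embryo, read 8.35, 7.26 and 7.02 in Shef3, H14 and Shef1 with FGF3+10, and 9.25, 7.90 and 7.73 in DFNB. In hESC it read 6.57, 6.55 and 6.85, below all 6 day 14 arrays. Its difference was 0.89 ± 0.50 in FGF3+10 and 1.64 ± 0.50 in DFNB (adjusted p = 0.520 and 0.184). ADH5 read 9.83 ± 0.34 in FGF3+10, 9.78 ± 0.19 in DFNB and 10.31 ± 0.22 in hESC.

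Of 9 measured receptors and co-regulators 0 passed, 8 were higher in FGF3+10 and 6 in DFNB, and the medians were 0.51 and 0.45. At an unadjusted p below 0.05 in limma, 1 was higher and 1 lower in FGF3+10, and 1 was higher in DFNB. The shares of all genes were 4.52% higher and 7.47% lower in FGF3+10, and 6.11% higher in DFNB. RXRA, a partner of RARB, read 7.39 ± 0.34 in FGF3+10, 7.37 ± 0.15 in DFNB and 6.71 ± 0.32 in hESC (adjusted p = 0.427 and 0.338). NRIP1, a co-repressor induced by retinoic acid, read 9.49 ± 0.43, 9.40 ± 0.80 and 7.92 ± 0.36 in the same order, with differences of 1.57 ± 0.45 and 1.48 ± 0.45 (adjusted p = 0.218 and 0.186). RARG and RXRG lay below 4 on all arrays.

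Of 21 measured genes known to respond to retinoic acid 0 passed. In FGF3+10 6 were higher and 15 lower with a median of -0.51, and in DFNB 12 were higher and 9 lower with a median of 0.12. At an unadjusted p below 0.05 in limma, 3 were higher and 3 lower in FGF3+10, and 5 were higher and 3 lower in DFNB. Over all genes the shares were 4.52% and 7.47% in FGF3+10, and 6.11% and 9.69% in DFNB. TGM2, a transglutaminase, read 9.68, 6.50 and 4.01 with FGF3+10 and 9.23, 7.90 and 6.61 in DFNB, against 4.96, 3.71 and 5.26 in hESC, in Shef3, H14 and Shef1. All DFNB arrays exceeded all hESC arrays, and FGF3+10 Shef1 did not. NR2F1, an orphan nuclear receptor, read 8.50 ± 0.42 in FGF3+10, 9.12 ± 0.17 in DFNB and 6.49 ± 0.91 in hESC, with differences of 2.01 ± 0.47 and 2.63 ± 0.47 (adjusted p = 0.137 and 0.0653). MEIS2, a homeobox factor chosen after its values were seen, read 10.19 ± 0.52 in FGF3+10, 10.35 ± 0.53 in DFNB and 7.85 ± 0.31 in hESC. Its differences of 2.34 ± 0.40 and 2.50 ± 0.40 passed with the replicate block (adjusted p = 0.0323 and 0.0247) and not without it (0.0721 and 0.0571). HOXD4, CDX1 and TBX1 lay below 4 on all arrays. The 4 measured hindbrain and spinal cord markers had means of 2.71 to 3.91 in FGF3+10, 3.98 to 4.23 in DFNB and 2.94 to 3.60 in hESC. Between FGF3+10 and DFNB no gene of the 4 lists passed.

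**Figure D5:**
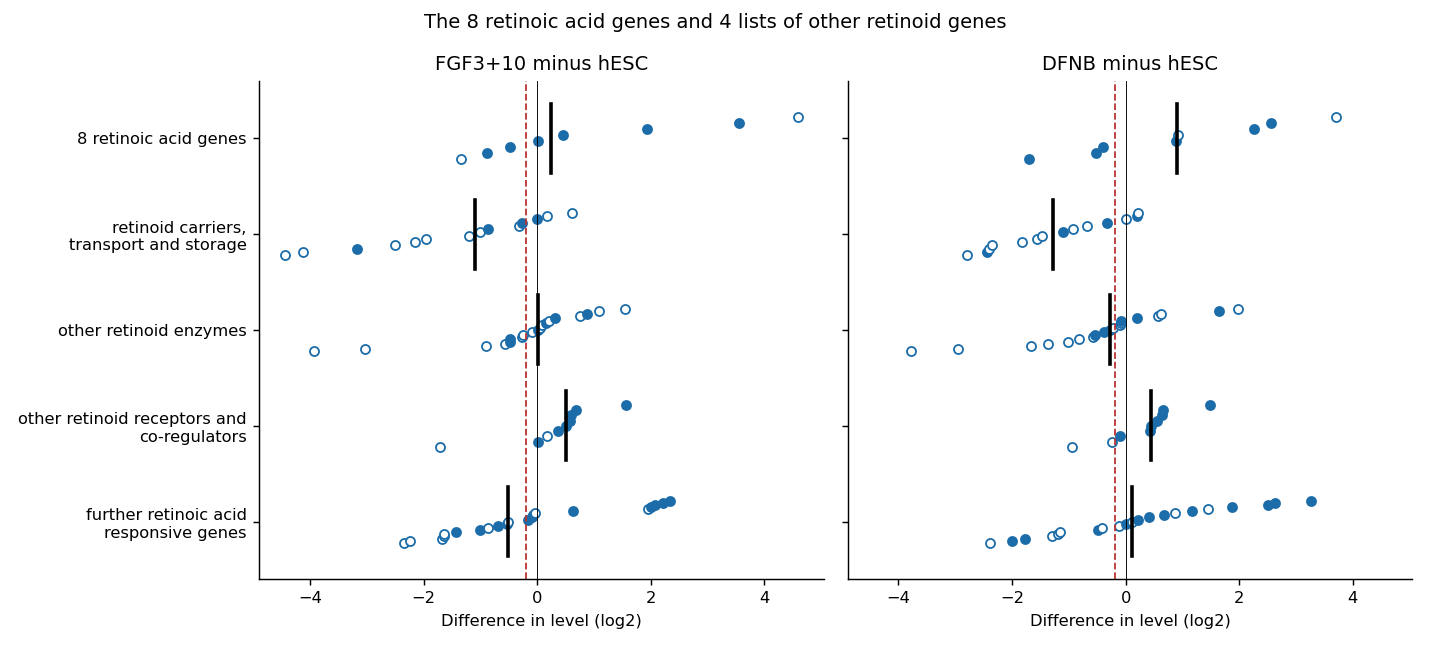
Difference in level (log2) of the 8 retinoic acid genes and of 4 lists of other retinoid genes for FGF3+10 minus hESC (left) and DFNB minus hESC (right); each point is 1 gene, filled where its mean over 9 arrays is 4 or more, black bars are list medians and the dashed line is the median of all genes, -0.19 in both. The carriers have the lowest medians, -1.10 and -1.28, and 4 of their 14 genes have a mean of 4 or more.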

How the data were processed

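Expression was measured on 9 arrays, and the labels give the group and cell line of each. RNA (200 ng in total per array) went through 3' IVT amplification and biotin labelling, per the labels' protocols. The authors deposited 1 value per probe set and array, taken here as log2 expression. The sources used here give neither software, probe summary and background correction nor the log base. Arrays have no read depth, and their number limits the precision.

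Of 54675 probe sets, 62 were controls, 41091 had 1 gene symbol, 1801 had several and 11721 others had none in the annotation used. Symbols were updated through Entrez identifiers (41037 matched). The comparisons used limma 3.58.1 under R 4.3.3 (lmFit and eBayes, a mean per group, 1 spread over all 9 arrays, Benjamini-Hochberg over 19775 genes, called below 0.05), tested on simulated data. Lines pair the arrays by label. Deviations from group means correlated within lines at 0.105, 0.0861 and 0.338 (DFNB and hESC; Shef3, H14, Shef1), 0.181, 0.258 and 0.283 (FGF3+10 and hESC), and 0.400, 0.331 and 0.713 (FGF3+10 and DFNB). Replicates 1, 2 and 3 are Shef3, H14 and Shef1.

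The members and lists were chosen with earlier results of these data known. All 8 genes are named. Of each pathway list the text names called genes, up to 4 in each direction, or else the 2 with the largest DFNB difference among those with a mean of 4 or more. Genes of these lists named after their values were seen are marked as such. The text also names the 3 genes most correlated with each of the 8 with a mean of 4 or more. Alternatives were quantile normalisation, a floor of 4, a filter at 4, the mean of probe sets, every probe set, the replicate block, the compared groups alone, array weights and leaving out lines or arrays.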

Additional observations from a re-analysis of the deposited data

Results flagged for a closer look

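In a pair of genes the day 14 arrays of different lines moved in opposite directions against their own hESC array. The share of all genes that did so was not counted. The sizes for CYP26B1 rest on low values, since 6 of the 9 arrays were below 4. For CYP26B1 the mean of both media minus hESC stood at 5.30 for the line Shef3, at -1.42 for H14 and at -4.53 for Shef1, with both media below hESC in H14 and Shef1 and above it in Shef3. In the added test the day 14 change in Shef3 exceeded that in Shef1 by 9.83 (limma, adjusted p = 0.134) and that in H14 by 6.72 (adjusted p = 0.329). ALDH1A3 had 0.97 for Shef3, -1.56 for H14 and -0.16 for Shef1, where the DFNB array differed from hESC by only -0.0067. The test gave 2.53 for Shef3 minus H14 (adjusted p = 0.512) and 1.13 for Shef3 minus Shef1 (adjusted p = 0.697). Of all genes 0 passed this test after adjustment in limma for any pair of lines, with 14.1% at an unadjusted p below 0.05 for Shef3 minus H14, 11.6% for Shef1 minus H14 and 23.4% for Shef3 minus Shef1.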

How the results depend on the processing

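Across 20 alternatives, the number of the 8 genes called stayed 0 between FGF3+10 and DFNB. It became 2 with array weights between DFNB and hESC (ALDH1A2 and CYP26A1), 1 with the compared groups alone between FGF3+10 and hESC (ALDH1A1), and 1 in the cell line F test with genes of mean 4 or more (CRABP2). Leaving out lines or arrays gave 0 to 1 between DFNB and hESC and between FGF3+10 and hESC, the 1 being ALDH1A1 without DFNB H14. The replicate block gave 0 in each comparison, with a lowest adjusted p among the 8 of 0.0812 for DFNB, 0.0925 for FGF3+10 and 1.00 between the media. Without Shef3 or without H14 no gene of the whole table was called, and without Shef1 4 and 5 were. Over all genes array weights called 1612 between DFNB and hESC, beside 40, and the floor of 4 called 183 and 123, beside 40 and 35.

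Some differences changed sign, none of which had passed the test. For FGF3+10 minus hESC, ALDH1A3 was -0.034 with the mean of probe sets and -0.15 with array weights, and for FGF3+10 minus DFNB, ALDH1A2 was -0.088 with the floor. Leaving out lines or arrays gave, for DFNB minus hESC, -1.68 to 2.97 for CYP26B1, -1.43 to 0.89 for ALDH1A3 and -0.99 to 0.053 for DHRS3. For FGF3+10 minus hESC it gave -0.25 to 0.88 for CRABP2, -4.27 to 0.91 for CYP26B1 and -0.29 to 0.42 for ALDH1A3. For FGF3+10 minus DFNB it gave -0.63 to 0.13 for RARB, -0.49 to 1.92 for ALDH1A1, -0.23 to 1.83 for ALDH1A2, -0.87 to 1.43 for ALDH1A3 and -0.43 to 0.52 for DHRS3. The causes were not tested. The signs of ALDH1A1, RARB and CYP26A1 against hESC held under all 20 alternatives, and that of ALDH1A2 under those that tested it. The filter at 4 left ALDH1A2 out, and its other probe set gave -0.53 in FGF3+10 and -0.14 in DFNB. Several alternatives cannot change a difference, only its spread or adjustment. These are the replicate block, the compared groups alone, the filter at 4, every probe set, and leaving out an array of the third group.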
